A study of Bos grunniens with 18 samples.

Results

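Creatine is built from arginine, and arginine is in turn made, split and recycled by a small set of enzymes that are best known from liver, kidney and muscle but are also transcribed in blood cells. The genes described here encode such enzymes: *GATM*, *GAMT*, *SLC6A8* and *CKB* of the creatine pathway, *ARG1*, *ARG2*, *ASS1*, *ASL* and *OAT* of arginine and ornithine metabolism, and *CBS*, which opens the transsulfuration pathway from homocysteine to cysteine. These 10 names were chosen by pathway with earlier results of the same libraries known, in which *GATM* stood among the genes with the smallest adjusted p between pregnancy and anestrus. For this reason the levels and fold changes of the named genes are a description, and no p-value is attached to them. Where a named gene is said to pass or to keep its call, also with a library dropped, that is a description too. Of the 20607 genes in the deposited table, 9 carry one of the names, each under 1 identifier, and *SLC6A8*, the creatine transporter, was not found under its name. Of the 9 genes, 8 passed the low-count filter of the differential test, all but *ASS1*.

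The libraries came from whole blood of female yaks (*Bos grunniens*) aged 4 to 8 years, with 6 libraries for each of 3 stages: Y-A for blood drawn at anestrus, Y-E for estrus, and Y-P for pregnancy. The study followed 6 cows whose estrus was synchronized with a progesterone pessary, cloprostenol (a PGF2α analogue) and GnRH before timed insemination; whether the Y-A blood was drawn before these agents, and the day of gestation at Y-P, are not given in the sources used here. Blood was collected into EDTA and lysed in TRIzol LS without sorting of cells, so that a lower share of 1 cell type and a lower level of RNA per cell cannot be told apart. Libraries are named by stage and by the number from 1 to 6 that their labels give, which was read as the number of the cow although no label states it.

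Each library held between 30247267 and 48401076 counts. Hemoglobin complex genes, 6 by their annotation, held 3.10% to 16.7% of all Y-A counts and 0.0272% to 0.376% of all Y-P counts. In Y-E they held 0.0899% to 0.713% in 5 libraries and 8.36% in Y-E replicate 6, which stood apart from its stage in this respect, so that each result resting on it is given with and without it. Markers of all 8 blood cell types looked for were detected. The summed level of 8 neutrophil markers was 3575 to 6938 CPM (counts scaled to a common library size, with TMM factors) in Y-P, against 4565 to 10400 CPM in Y-A, and 8175 to 13780 CPM in 5 Y-E libraries, with 5926 CPM in Y-E replicate 6. The 6 T cell markers summed to 1040 to 1748 CPM in Y-P, against 857 to 1078 CPM in Y-A and 875 to 1026 CPM at estrus.

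The chain of reactions begins with *GATM* (glycine amidinotransferase), which moves the amidino group of arginine to glycine and thereby sets the pace of creatine synthesis. *GAMT* (guanidinoacetate N-methyltransferase) then methylates the product to creatine, which the transporter encoded by *SLC6A8* carries into cells and creatine kinases such as *CKB* convert to phosphocreatine. *ARG1* and *ARG2* are the cytosolic and the mitochondrial arginase, which split arginine into urea and ornithine, and *OAT* (ornithine aminotransferase) passes ornithine on towards glutamate and proline. *ASS1* and *ASL* rebuild arginine from citrulline through argininosuccinate. *CBS* (cystathionine beta-synthase) joins homocysteine, which is left over from methylation reactions such as that of *GAMT*, to serine.

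**Figure D1:**
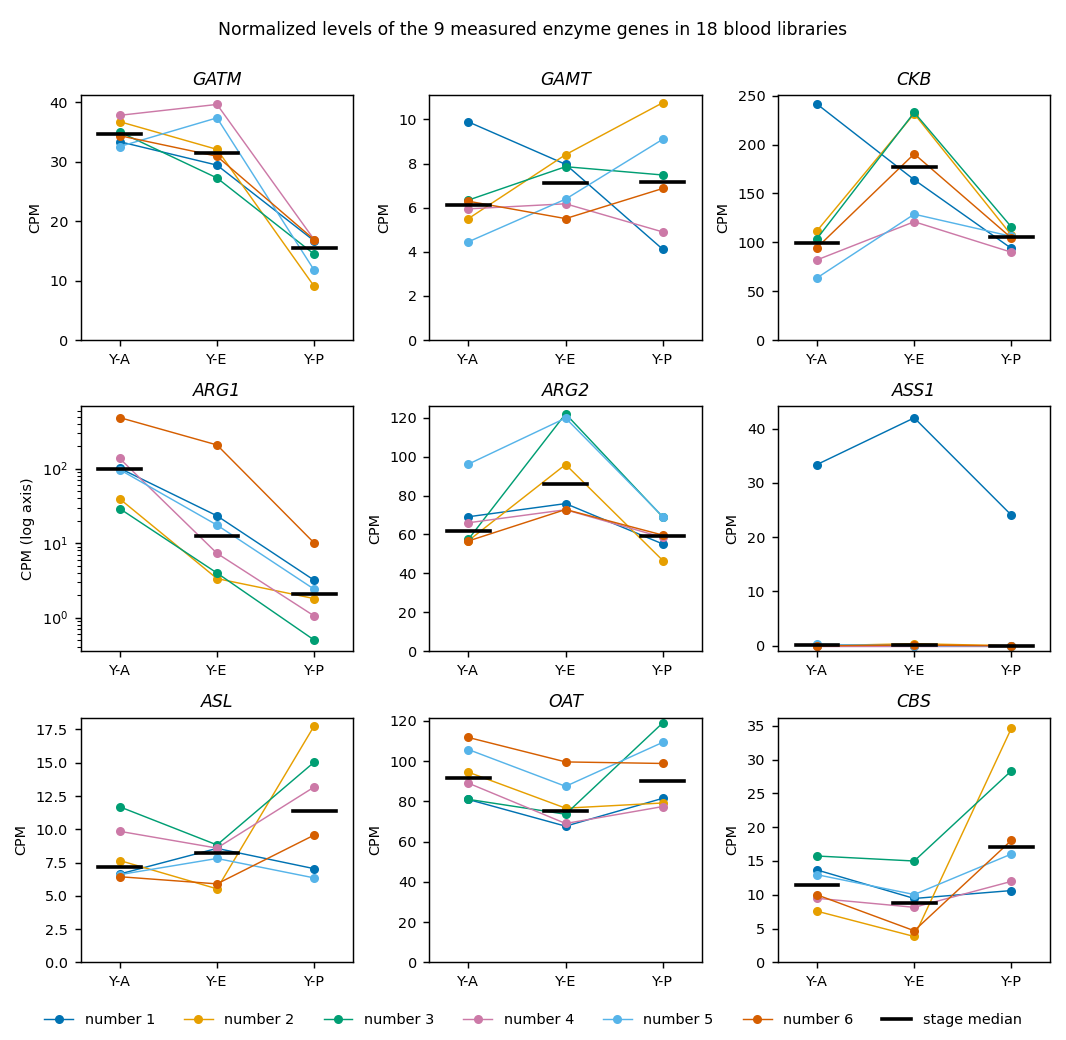
Normalized levels (CPM, vertical axes, logarithmic for *ARG1*) of the 9 genes in the 3 stages; each point is a library, colored lines join libraries with the same number, and black bars are stage medians. *GATM* lies lower in all 6 Y-P libraries than in any other library, *ARG1* falls stage by stage along every line, and *ASS1* is high in the 3 libraries of number 1.

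The test of the whole table covered 14508 genes with edgeR. Calls needed both an adjusted p under 0.05 and a change of at least 2-fold, the thresholds of the study. Between Y-P and Y-A 1.43% of the tested genes passed both thresholds and 5.83% the adjusted p alone. Of the 8 enzyme genes tested, 2 passed in either way, *GATM* and *ARG1*, both lower in pregnancy. Between Y-P and Y-E the shares over all genes were 2.67% and 14.4%. Here 3 of the 8 passed both thresholds, *GATM* and *ARG1* lower and *CBS* higher in pregnancy, and 5 passed the adjusted p alone, the other two being *ARG2* and *CKB*, both lower. Between Y-E and Y-A, where 0.0138% of all genes passed both thresholds and 0.0207% the adjusted p alone, edgeR called 0 of the 8, 2 had an unadjusted p under 0.05, and DESeq2 called 0. Both comparisons with pregnancy share the Y-P libraries. The median log2 fold change of the 8 genes was −0.08 in Y-P vs. Y-A, −0.31 in Y-P vs. Y-E and −0.10 in Y-E vs. Y-A, against 0.03, 0.04 and −0.01 over all tested genes. Because the names were picked with such results known, nothing is read from these counts.

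**Figure D2:**
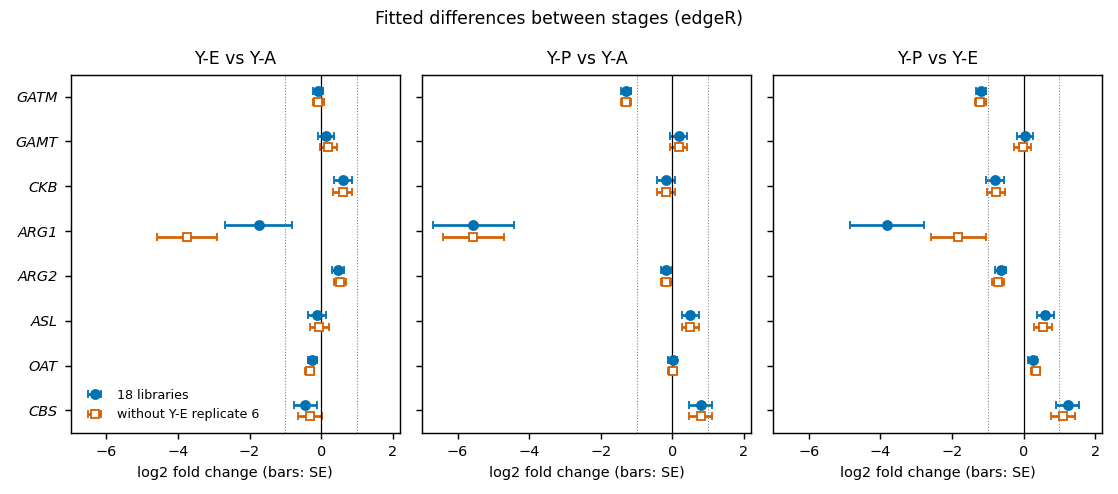
Log2 fold changes (horizontal axes) of the 8 tested genes in the 3 comparisons, with SE as bars; filled circles are the fit of 18 libraries, open squares the fit without Y-E replicate 6, and dotted lines mark a 2-fold change. The 2 fits lie close together for all genes but *ARG1*, which moves from −1.75 to −3.74 in Y-E vs. Y-A and from −3.81 to −1.82 in Y-P vs. Y-E.

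*GATM* (ENSBGRG00000019341, chromosome 11, 53393391 to 53410897, plus strand, protein coding; positions are those of the deposited table) was the member with the most even levels in anestrus. Its level ran from 32.6 to 37.8 CPM in Y-A (median 34.7), from 27.3 to 39.6 CPM in Y-E (median 31.5) and from 9.03 to 16.9 CPM in Y-P (median 15.6). Every Y-P library thus lay under every library of the other stages, while Y-A and Y-E overlapped. The coefficient of variation was 5.70% at anestrus, 14.6% at estrus and 22.9% in pregnancy. Between libraries of the same number, the Y-P level was 0.246 to 0.500 times the Y-A level and 0.281 to 0.567 times the Y-E level, lower in 6 of 6 numbers both times. The log2 fold change was −1.29 (SE 0.14) in Y-P vs. Y-A, or 2.45 times lower, and −1.20 (SE 0.14) in Y-P vs. Y-E, or 2.30 times lower. From Y-A to Y-E it was −0.09 (SE 0.14). Whichever of the 18 libraries was dropped, these 2 pregnancy comparisons stayed past both thresholds, at −1.35 to −1.19 and −1.25 to −1.10 on the log2 scale. As *GATM* was picked with such results known, these refits of the same libraries are no independent support. The genes whose log2 CPM followed *GATM* most closely over the 18 libraries were *NUP58* (Pearson's r = 0.932), *FSTL4* (0.932) and *ZBTB34* (0.929), given as a description of libraries that share stages and cows. The 5 platelet markers found in the table, of which *GP1BB* was at or under 3 counts in every library, also summed to less in Y-P (140 to 196 CPM) than in Y-A (263 to 351 CPM) and Y-E (228 to 370 CPM). By their medians, markers of neutrophils (4487 CPM), monocytes (624 CPM) and red cells (178 CPM) were lowest in Y-P too. In this order Y-A had 6200, 864 and 2092 CPM, and Y-E had 11310, 1004 and 276 CPM. Medians of T cell, B cell, and eosinophil and basophil markers were highest in Y-P, and that of NK cell markers lay between the other stages. The part of platelets or of any other cell type in the lower *GATM* level was not tested.

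*GAMT* (ENSBGRG00000015533, chromosome 8, 47408357 to 47412081, minus strand), the next enzyme of the chain, did not pass in any comparison. Its level was 4.45 to 9.89 CPM in Y-A (median 6.12), 5.51 to 8.404 CPM in Y-E (median 7.12) and 4.11 to 10.8 CPM in Y-P (median 7.18), and all 3 ranges overlapped. Its log2 fold change was 0.17 (SE 0.23) in Y-P vs. Y-A and 0.03 (SE 0.23) in Y-P vs. Y-E, and neither passed. Within a library, the deposited FPKM values (fragments scaled to transcript length and depth) allow both enzymes to be compared per length. The FPKM of *GATM* was 1.48 to 3.22 times that of *GAMT* in Y-A (median 2.62), 1.53 to 2.83 times in Y-E (median 2.08) and 0.369 to 1.797 times in Y-P (median 0.966). The highest Y-P ratio thus still lay above the lowest ratio of Y-A. *GAMT* overlaps *NDUFS7* on the other strand, which was at 17.2 to 44.4 CPM over the 18 libraries; since the counting of strands is not described, reads of the 2 genes cannot be separated with certainty.

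*CKB* (ENSBGRG00000024311, chromosome 17, 73882260 to 73892626, minus strand), the brain-type cytosolic creatine kinase, was highest in estrus. Levels were 63.6 to 242 CPM in Y-A (median 99.1), 121 to 233 CPM in Y-E (median 177) and 89.9 to 116 CPM in Y-P (median 105). Every Y-P library lay under every Y-E library, while the Y-A range reached above both through Y-A replicate 1, whose 242 CPM lay far over the 112 CPM of the next Y-A library. Its log2 fold change was −0.79 (SE 0.25) in Y-P vs. Y-E, past the adjusted p but not the fold threshold, and without Y-E replicate 6 it was −0.77 (SE 0.26) and no longer passed the adjusted p. It passed the adjusted p in 9 of the 18 fits with a library dropped. In Y-E vs. Y-A it was 0.62 (SE 0.25), higher in 5 of 6 numbers, and did not pass. The 8 neutrophil markers were likewise highest at estrus by their median sums, 11310 CPM, but then followed anestrus with 6200 CPM and pregnancy with 4487 CPM, whereas the *CKB* median was slightly higher in pregnancy than at anestrus. Y-E replicate 6 had 5926 CPM of neutrophil markers and 190 CPM of *CKB*. The part of neutrophils in the *CKB* levels was not tested. The gene overlaps *TRMT61A* (1.04 to 9.22 CPM) and ENSBGRG00000024357 on the other strand.

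*ARG1* (ENSBGRG00000022404, chromosome 10, 19036258 to 19062347, minus strand) had the widest range of all members. In Y-A its levels were 101.3, 39.3, 29.1, 137, 97.1 and 486 CPM in replicates 1 to 6. In Y-E the same numbers had 23.3, 3.34, 3.96, 7.29, 17.5 and 208 CPM. In Y-P they had 3.16, 1.796, 0.497, 1.05, 2.397 and 10.01 CPM. All 6 numbers fell from Y-A to Y-E and again from Y-E to Y-P, and number 6 was the highest library of each stage. The Y-P level was 0.00764 to 0.0457 times the Y-A level of the same number, and the ranges of Y-P and Y-A did not overlap. The Y-E range overlapped both others, with Y-A through replicate 6 alone, since the remaining Y-E libraries ended at 23.3 CPM and Y-A began at 29.1 CPM.

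The fitted log2 fold change of *ARG1* was −5.56 (SE 1.13) in Y-P vs. Y-A, a 47.3-fold lower level in pregnancy, and it kept its call in all 18 fits without a library, from −6.38 to −4.73. In Y-P vs. Y-E it was −3.81 (SE 1.04) and passed, but without Y-E replicate 6 it was −1.82 (SE 0.76) and did not. In Y-E vs. Y-A it was −1.75 (SE 0.94) and did not pass, nor did it without Y-E replicate 6 at −3.74 (SE 0.83). With the cow's number as a block, the Y-E vs. Y-A value was −2.67 (SE 0.37) and passed, and without Y-E replicate 6 the blocked value was −3.05 (SE 0.33) and passed as well. The blocked Y-P vs. Y-E value without that library, −2.48 (SE 0.33), also passed. *MED23*, which overlaps *ARG1* on the other strand, was at 74.4 ± 5.68 CPM at anestrus, 70.4 ± 8.18 CPM at estrus and 76.1 ± 10.9 CPM during pregnancy (SD, n = 6 for each stage) and did not follow it.

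*ARG1* moved with the transcripts of red cells. Number 6, the highest for *ARG1* in each stage, also had the highest share of hemoglobin complex counts in each stage, 16.7% at anestrus, 8.36% at estrus and 0.376% in pregnancy. The 8 red cell markers in the table summed to 652 to 12430 CPM in Y-A, to 227 to 310 CPM in Y-E, with 5362 CPM in Y-E replicate 6, and to 132 to 235 CPM in Y-P. Of the 3 genes whose log2 CPM lay closest to *ARG1* over the 18 libraries, 2 are annotated to the hemoglobin complex, ENSBGRG00000011277 (Pearson's r = 0.958) and ENSBGRG00000014632 (0.956), and the third, ENSBGRG00000013375 (0.980), has no name in the table. For every 10000 counts of hemoglobin complex genes, *ARG1* had 7.32 to 34.5 counts in Y-A (median 12.8), 12.4 to 86.5 in Y-E (median 28.7) and 16.3 to 69.1 in Y-P (median 36.1). Measured against hemoglobin counts, the *ARG1* counts of Y-P thus lay in a range that overlapped Y-A, but were higher within each number. In Y-A numbers 1 to 6 had 7.32, 13.2, 8.07, 34.5, 12.4 and 25.5 counts. In Y-P the same numbers had 69.1, 16.5, 16.3, 43.2, 59.15 and 28.9 counts. Whether the red cell RNA accounts for the *ARG1* levels was not tested.

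**Figure D3:**
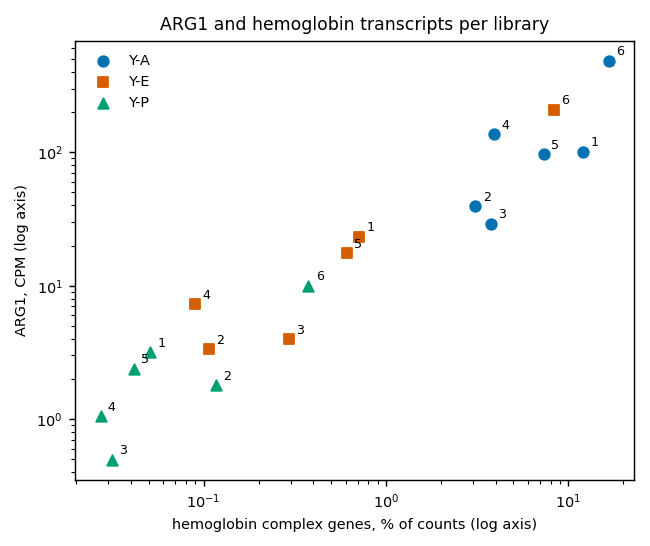
*ARG1* level (CPM, vertical logarithmic axis) against the share of counts taken by the 6 hemoglobin complex genes (percent, horizontal logarithmic axis) in each of the 18 libraries, labeled by number. Y-E replicate 6, at 8.36% and 208 CPM, lies among the Y-A libraries, and Y-P replicate 6, at 0.376% and 10.01 CPM, is the highest of its stage on both axes.

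*ARG2* (ENSBGRG00000005898, chromosome 11, 69285394 to 69320835, plus strand), on the same chromosome as *GATM*, varied far less than *ARG1* and had another order of stages. Levels were 56.7 to 96.1 CPM in Y-A (median 61.7), 72.7 to 122 CPM in Y-E (median 85.9) and 46.6 to 69.2 CPM in Y-P (median 59.1). Y-P lay under Y-E without overlap, and Y-A overlapped both. In Y-P vs. Y-E *ARG2* changed by −0.64 on the log2 scale (SE 0.16), past the adjusted p but not the fold threshold; it passed the adjusted p whichever library was dropped and was −0.71 (SE 0.17) without Y-E replicate 6. In Y-E vs. Y-A it was 0.48 (SE 0.16), higher in 6 of 6 numbers, and did not pass. The closest genes over the 18 libraries were ENSBGRG00000001827 (Pearson's r = 0.958), ENSBGRG00000000172 (0.941) and *CD24* (0.916), a surface glycoprotein of granulocytes and B cells. The neutrophil marker sums given for *CKB* move with *ARG2* too, and their part was not tested here either.

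Per length, the arginase transcripts changed from a mixture to mostly *ARG2*. *ARG1* made up 26.2% to 85.8% of the summed FPKM of both arginases in Y-A (median 46.1%). In Y-E it made up 2.21% to 17.7% in 5 libraries and 66.8% in Y-E replicate 6, and in Y-P 0.504% to 10.5% (median 2.47%). The ranges of Y-A and Y-P did not overlap, and those of Y-A and Y-E did through Y-E replicate 6 alone.

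*OAT* (ENSBGRG00000025665, chromosome 25, 48068782 to 48084427, minus strand), which uses the ornithine that arginases release, was among the steadiest members. Its level was 81.0 to 112 CPM in Y-A (median 91.8), 67.7 to 99.6 CPM in Y-E (median 75.1) and 77.5 to 119 CPM in Y-P (median 90.2), with all ranges overlapping. It was lower in Y-E than in Y-A in 6 of 6 numbers, at 0.775 to 0.909 times the Y-A level, and the log2 fold change of −0.25 (SE 0.13) did not pass. In Y-P vs. Y-E it was 0.25 (SE 0.13) and did not pass.

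*ASS1* (ENSBGRG00000008323, chromosome 9, 9794122 to 9843854, plus strand) had more than 12 counts only in the libraries of 1 number. Number 1 had 1191 counts at anestrus, 1328 at estrus and 813 in pregnancy, or 33.4, 42.0 and 24.0 CPM. Of the other 15 libraries 11 had no count, 3 had 6 to 12 counts and Y-A replicate 3 had 4. The highest of the 15 was at 0.392 CPM, while a count of 0 allows up to 3 counts, or 0.0604 to 0.107 CPM depending on the library; these limits cover counting error only. The difference between number 1 and the others held in every stage, and the gene was too rarely counted for the test of stages. Of the genes with at least 100 counts in each library of number 1, *ASS1* was the only one whose lowest level there exceeded 10 times the highest level of all other libraries, a search made after the values had been seen. The same search in the other numbers found 1 further gene, *SCN3A* in number 3. Of the 3 genes on either side of *ASS1*, none separated number 1 from the other libraries. The nearest upstream gene, ENSBGRG00000007241, was hardly counted anywhere, with 7 to 20 counts in number 1, at most 18 in the others and none in 10 of them. *FUBP3*, which follows it on the chromosome, had 30.0 to 32.0 CPM in number 1 and 23.9 to 36.0 CPM in the other libraries, and *EXOSC2* had 22.7 to 29.7 CPM and 19.6 to 40.3 CPM.

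**Figure D4:**
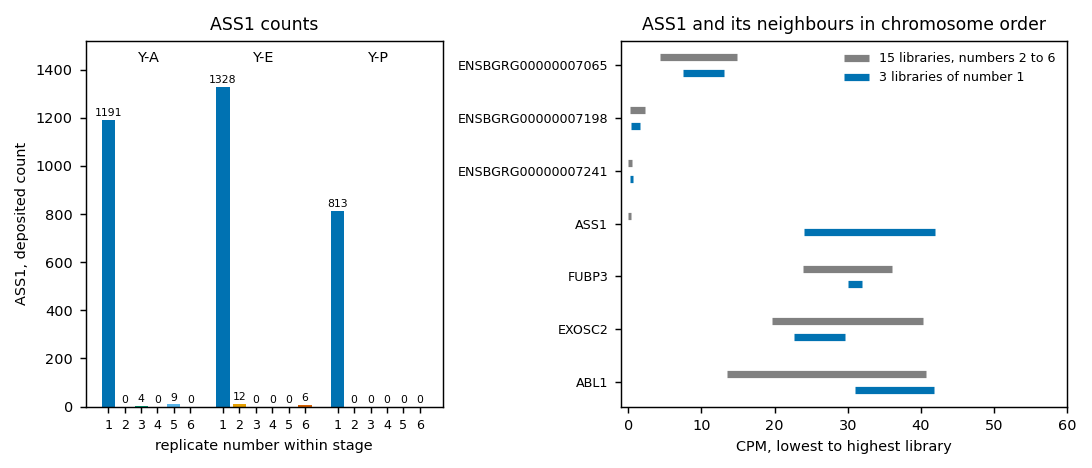
Left, deposited counts of *ASS1* (vertical axis) in the 18 libraries by stage and number; right, lowest to highest level (CPM, horizontal axis) of *ASS1* and the 3 genes on either side of it in the 3 libraries of number 1 (blue) and the other 15 libraries (grey). *ASS1* has 813 to 1328 counts in number 1 and at most 12 elsewhere, while the ranges of its neighbors overlap.

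*ASL* (ENSBGRG00000023875, chromosome 26, 16289280 to 16297513, plus strand), the enzyme that follows *ASS1*, was measured in all libraries, including those without *ASS1* counts. Levels were 6.44 to 11.7 CPM in Y-A (median 7.15), 5.53 to 8.82 CPM in Y-E (median 8.19) and 6.35 to 17.8 CPM in Y-P (median 11.4). The ranges overlapped, with Y-P replicates 2, 3 and 4 at 17.8, 15.1 and 13.2 CPM above all libraries of the other stages. The log2 change of *ASL* was 0.50 (SE 0.24) in Y-P vs. Y-A and 0.61 (SE 0.24) in Y-P vs. Y-E, and neither passed.

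*CBS* (ENSBGRG00000020259, chromosome 1, 156234932 to 156255721, minus strand) was the member called higher in pregnancy, against Y-E and not against Y-A. It was at 7.57 to 15.7 CPM in Y-A (median 11.5), 3.83 to 15.0 CPM in Y-E (median 8.80) and 10.6 to 34.7 CPM in Y-P (median 17.1). Y-P overlapped both other stages, and its spread came from replicates 2 and 3, at 34.7 and 28.4 CPM, with the others between 10.6 and 18.1 CPM. Against Y-E the level was higher in 6 of 6 numbers, by a ratio of 1.12 to 9.06 (median 1.75), and against Y-A in 5 of 6, by 0.777 to 4.58. Its log2 fold change in Y-P vs. Y-E was 1.23 (SE 0.33) and passed. Without Y-E replicate 6 it was 1.10 (SE 0.33) and passed, and without Y-P replicate 2 it was 0.9993 (SE 0.32), which passed the adjusted p but fell short of the fold threshold. In Y-P vs. Y-A it was 0.79 (SE 0.32) and did not pass. The closest genes over the 18 libraries were *ACTR1B* (Pearson's r = 0.865), *SCML4* (0.854) and *CPA4* (0.854). The T cell markers were also highest in Y-P, at 1513 and 1386 CPM in replicates 2 and 3, but Y-P replicate 5 had the highest sum, 1748 CPM, with 16.03 CPM of *CBS*; the part of T cells was not tested.

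Ranked by median FPKM, the members fell into a high and a low group. In Y-A *OAT* (54.6), *CKB* (54.4), *ARG1* (49.7) and *ARG2* (47.3 FPKM) had overlapping ranges, followed by *GATM* at 10.7 FPKM without overlap. Under *GATM* came *GAMT* (4.18), *ASL* (4.17) and *CBS* (3.94 FPKM), which overlapped among themselves. In Y-P *CKB* (63.3), *OAT* (62.3) and *ARG2* (54.7 FPKM) were still together at the top, and *GATM* at 5.30 FPKM had moved below *ASL* (7.82), *CBS* (7.15) and *GAMT* (5.47 FPKM), within their ranges. *ARG1* was at 1.23 FPKM, overlapping *GATM* through Y-P replicate 6. In Y-E the order was *CKB* (98.2), *ARG2* (66.4), *OAT* (42.7), *GATM* (9.60) and *ARG1* (6.74 FPKM).

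To place the members in their pathways, 64 further genes were listed by function, of which 45 were found in the table and 39 were tested. They were listed from general knowledge without their values, but with earlier results of these libraries known, so their adjusted p are a description. In Y-P vs. Y-A 2 of the 39 passed both thresholds, *DDAH2* and *SMOX*, both lower. In Y-P vs. Y-E 2 passed the adjusted p, *DDAH2* and *SLC16A12*, both lower, and *DDAH2* passed the fold threshold as well. In Y-E vs. Y-A edgeR called 0 of the 39, 1 had an unadjusted p under 0.05, and DESeq2 called 0. By library size alone, with no TMM factor, 4 passed both thresholds in Y-P vs. Y-A, 2 higher and 2 lower. Against estrus 5 then passed the adjusted p, 4 higher and 1 lower, and the 1 gene that passed both thresholds was higher in pregnancy, so that it was not *DDAH2*. Over the 39 genes the median log2 fold change was −0.06, 0.02 and 0.01 in the 3 comparisons in this order. The shares of all tested genes that passed are those given above for the whole table and hold for the fit with TMM factors. By library size alone these shares are not given here, so nothing is read from those counts.

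*DDAH2* (ENSBGRG00000016025, chromosome 24, 7540201 to 7543531, minus strand), assigned to the breakdown of methylated arginine that inhibits nitric oxide synthases, was at 4.88 to 13.6 CPM in Y-A, 3.73 to 9.79 CPM in Y-E and 2.86 to 3.95 CPM in Y-P. Y-P lay under Y-A without overlap and met Y-E in 1 library, replicate 1. The highest *DDAH2* levels were in Y-A replicate 6 (13.6) and Y-E replicate 6 (9.79 CPM), which had the highest hemoglobin share of their stages. Y-A replicate 1, with a hemoglobin share of 12.05%, had 6.39 CPM. The part of red cell RNA in the *DDAH2* levels was not tested. *DDAH2* changed by −1.24 on the log2 scale (SE 0.24, adjusted p = 0.00781, edgeR) in Y-P vs. Y-A, lower in 6 of 6 numbers, and −1.02 (SE 0.24, adjusted p = 0.00925, edgeR) in Y-P vs. Y-E. Over the alternatives the adjusted p stayed between 7.41e-05 and 0.0215 in the first and between 0.000695 and 0.0342 in the second. Without Y-A replicate 6 the Y-P vs. Y-A change was −1.03 and still passed both thresholds. In Y-P vs. Y-E the fold fell under 2 without Y-E replicate 3 (−0.99), Y-E replicate 6 (−0.87) or Y-P replicate 4 (−0.99), with the replicate block (−0.95, and −0.93 without Y-E replicate 6 as well) and with scaling by library size alone (−0.88). With limma on log2(FPKM + 1) it was −0.78 in Y-P vs. Y-A and −0.62 in Y-P vs. Y-E, under the fold threshold in both.

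*SMOX* (ENSBGRG00000007857, chromosome 12, 43479072 to 43523415, minus strand), which oxidizes spermine, was at 6.52 to 24.9 CPM in Y-A, 5.49 to 16.4 CPM in Y-E and 3.47 to 7.40 CPM in Y-P. Its highest libraries were Y-A replicate 6 (24.9), Y-A replicate 1 (18.4) and Y-E replicate 6 (16.4 CPM), which are the 3 libraries with the highest share of hemoglobin counts; the part of red cell RNA was not tested. *SMOX* changed by −1.32 on the log2 scale (SE 0.35, adjusted p = 0.034, edgeR) in Y-P vs. Y-A. It lost its call without Y-A replicate 1 (adjusted p = 0.0614), Y-A replicate 6 (0.0706) and Y-P replicates 2 (0.0594), 3 (0.0642), 4 (0.0684) or 5 (0.0726), and the lowest adjusted p over the alternatives was 0.00457 (DESeq2). With limma the adjusted p was 0.0642 and 0.0587 with the larger and the smaller pseudocount. *SLC16A12* (ENSBGRG00000017960, chromosome 25, 11999034 to 12073081, minus strand), a carrier that exports creatine, was at 92.8 to 163 CPM in Y-A, 83.0 to 155 CPM in Y-E and 43.6 to 95.1 CPM in Y-P. Its log2 fold change in Y-P vs. Y-E was −0.65 (SE 0.20, adjusted p = 0.0338, edgeR), and the adjusted p rose to 0.0837 or 0.0778 when Y-E replicate 2 or 5 was dropped, and to 0.0591 or 0.07 when Y-P replicate 2 or 3 was dropped. Over all alternatives it ran from 0.0116 to 0.12.

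The other pathway genes did not pass in any comparison in the edgeR fit of 18 libraries, although some did under alternatives. *NOS3*, the endothelial nitric oxide synthase, was at 3.596 to 29.4 CPM in Y-A, 17.8 to 24.0 CPM in Y-E and 21.2 to 47.0 CPM in Y-P, with overlapping ranges; it and *CTH* below are named after their values were seen. Its log2 fold change was 0.91 (SE 0.33, adjusted p = 0.103, edgeR) in Y-P vs. Y-A and 0.85 (SE 0.33, adjusted p = 0.0898, edgeR) in Y-P vs. Y-E, opposite in sign to *DDAH2*. Over the alternatives (edgeR, DESeq2 and limma) these adjusted p ran from 0.0184 to 0.197 and from 0.0126 to 0.149. In Y-P vs. Y-E other genes had smaller adjusted p than *NOS3* (edgeR), also named after their values were seen. They were *OAZ2* (−0.54, adjusted p = 0.0702), *SQOR* (−0.26, 0.0776) and *SLC7A6* (0.36, 0.0857). With edgeR *OAZ2* passed the adjusted p with the replicate block (0.0238) and without Y-E replicate 6 (0.0252). Of the cationic amino acid transporters 3 were tested, with log2 fold changes of −0.23 to 0.30 in Y-P vs. Y-A. The 8 polyamine genes tested ran from −1.32, that of *SMOX*, to 0.42 in this comparison. The 6 genes of ornithine, proline and glutamate metabolism ran from −0.31 to 0.35 and the 7 of the methionine cycle, which supplies the methyl groups for *GAMT*, from −0.70 to 0.14 in the same comparison. The 7 genes of transsulfuration and sulfide metabolism ran from −0.54 to 0.88, the highest being *CTH*, the enzyme after *CBS*, with an adjusted p of 0.0873 (edgeR); in Y-P vs. Y-E *CTH* was at 0.77 (adjusted p = 0.0938). Over the alternatives these ran from 0.0106 to 0.176 and from 0.0142 to 0.203 (edgeR, DESeq2 and limma). Muscle-type *CKM* had at most 7 counts in any library and was not tested. The mitochondrial *CKMT2* had at most 20 counts and was tested, with an SE of 1.18 to 1.24 on its log2 fold changes.

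**Figure D5:**
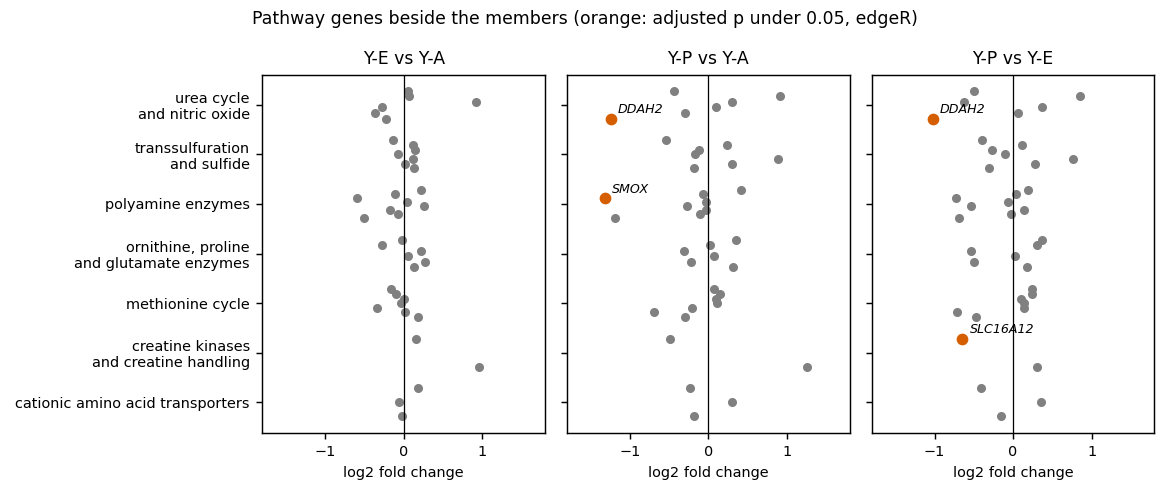
Log2 fold changes (horizontal axes) of the 39 tested pathway genes that are not among the 10 names, by functional list, in the 3 comparisons; orange points passed an adjusted p under 0.05. *DDAH2* stands out at −1.24 and −1.02 in the comparisons with pregnancy, *SMOX* at −1.32 and *SLC16A12* at −0.65, and no gene passed in Y-E vs. Y-A.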

How the data were processed

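Whole-blood RNA of 18 libraries was poly(A)-selected and sequenced as paired ends. Per the submitters' processing notes and the paper's methods, the authors trimmed reads with cutadapt 1.9, aligned them with HISAT2 2.2.1 to the *Bos grunniens* genome and assembled transcripts with StringTie 2.1.6. The authors deposited whole-number counts, not normalized, and FPKM values from StringTie and ballgown; how the counts were made is not given in the sources used here. Per-sample columns not used numbered 0.

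Members were found by gene name. They and the pathway and marker lists were chosen with earlier results of these data known. The pathway lists were written from general knowledge without the values of their genes, whose adjusted p are given as a description. The named genes are the 10 members, the listed pathway genes with an adjusted p under 0.05 (at most 4 per list and comparison) and the 3 genes most correlated with a member (log2 CPM, 18 libraries). Marker lists (red cell, neutrophil, eosinophil and basophil, monocyte, T, B, NK, platelet) were summed in CPM. The counts were fitted with edgeR 4.0.16 in R 4.3.3 (TMM, filterByExpr, quasi-likelihood, stage as the factor, two-sided) over all 18 libraries, with Benjamini-Hochberg adjustment over the 14508 tested genes; the SE is the log2 fold change divided by the root of F. The method was tested on simulated data. Alternatives were DESeq2 1.42.0, limma 3.58.1 on log2(FPKM + 1) and log2(FPKM + 0.1), no scaling beyond library size, no filter, leaving out each library or the hemoglobin genes, and the replicate number as a block.

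Because the methods describe 6 cows tracked through the stages, libraries of the same number were taken as 1 cow, which no label states. The correlation of their deviations from the stage means ran from 0.11 to 0.515 (Y-E and Y-A), −0.0492 to 0.369 (Y-P and Y-A) and −0.0544 to 0.4 (Y-P and Y-E). In this order the means were 0.277, 0.136 and 0.14, against −0.0545, −0.0274 and −0.0282 for libraries of different numbers. Deviations cancel within a stage, so the means for different numbers are tied to those for equal numbers.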

Additional observations from a re-analysis of the deposited data

Results flagged for a closer look

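In each stage the highest and the lowest of the 6 libraries were compared with the nearest other library for the 9 measured genes and for the hemoglobin share, 30 groups in all. In 11 of them the gap, as a share of the range, exceeded Dixon's critical value, which chance gives in about 1 group of 20 for independent, normally distributed values. The values here are unlogged and some are skewed, and the same numbers recur across stages. That rate therefore does not apply to the 11 groups, which are listed as a description. *ASS1* stood apart in number 1 in every stage, at 33.4 CPM in Y-A, 42.0 CPM in Y-E and 24.0 CPM in Y-P. *ARG1* stood apart in number 6 in every stage, at 486 CPM in Y-A, 208 CPM in Y-E and 10.01 CPM in Y-P. The hemoglobin share stood apart in Y-E replicate 6 (8.36%) and Y-P replicate 6 (0.376%). Y-A replicate 1 was high for *GAMT* (9.89 CPM) and *CKB* (242 CPM), and Y-A replicate 5 for *ARG2* (96.1 CPM).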

How the results depend on the processing

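Of 624 values of the 8 members' fold changes under 26 alternatives, 615 kept their direction and their call by both thresholds together (those not called: moved by less than the spread between replicates), and none of the called ones changed sign. Passing the adjusted p alone was not part of this count. In Y-P vs. Y-E *CKB* passed it in 9 of the 18 fits with a library dropped, and *ASL* in 1. The edgeR fit of 18 libraries had 1 member higher and 4 lower by the adjusted p alone in Y-P vs. Y-E. Scaling by library size alone gave 2 higher and 3 lower, and limma gave 3 higher and 2 lower with either pseudocount. The directions by this rule thus depended on the scaling. In Y-P vs. Y-A limma on log2(FPKM + 1) gave 1 higher and 2 lower. With limma on log2(FPKM + 1), *GATM* was at −0.98 and −0.90 against anestrus and estrus, past the adjusted p but not the fold threshold, and 1 member was called in each of these comparisons, lower in the first and higher in the second. Under that setting *ARG1* in Y-P vs. Y-E was at −1.92 and with a pseudocount of 0.1 at −2.50, and passed in neither. With the replicate block 1 member, *ARG1*, was called in Y-E vs. Y-A, with and without Y-E replicate 6, by both rules; the block changed no other member's call by both thresholds. Leaving out 1 library gave 0 members in Y-E vs. Y-A, 2 in Y-P vs. Y-A and 2 to 3 in Y-P vs. Y-E, or 3 to 5 by the adjusted p alone, the 3 being without Y-E replicate 6.

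For the 39 pathway genes in Y-P vs. Y-A, scaling by library size alone called 4 by both thresholds and 5 by the adjusted p, DESeq2 5 by the adjusted p, and limma 1 by both thresholds with a pseudocount of 1 and 9 by the adjusted p with either pseudocount, 8 of them higher. In Y-P vs. Y-E the replicate block called 0 by both thresholds, with or without Y-E replicate 6, and 4 by the adjusted p; limma called 0 by both thresholds and 10 and 8 by the adjusted p, and DESeq2 and library size alone 5 each. Leaving out 1 library gave 1 to 3 and 0 to 1 by both thresholds in the 2 comparisons, and 1 to 4 and 1 to 5 by the adjusted p. The shares of all tested genes that passed under these alternatives are not given here, so nothing is read from these counts about the pathway genes. Scaling by library size alone raised the median log2 fold change of all genes from 0.03 to 0.19 in Y-P vs. Y-A and from 0.04 to 0.18 in Y-P vs. Y-E, and the cause of the shifts was not tested. Counts of a few reads, as for *ASS1* outside number 1 and *CKM*, allow no fold change, and those of *CKMT2* only an imprecise one.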
